A study of Homo sapiens with 12 samples.

Results

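The genes described here encode 58 proteins that hepatocytes secrete into plasma: carriers, protease inhibitors, fibrinogen and adhesive proteins, clotting factors, anticoagulant and fibrinolytic proteins, and complement components. They were chosen by name from the 58721 genes counted in each library, and all 58 were found by GENCODE symbol. They were followed in HepG2, an established human liver cancer cell line that keeps much of the secretory programme of hepatocytes, 2 days after transient knockdown of IGF2BP3 (siIGF2BP3), which encodes an RNA-binding protein, or after a control knockdown (siControl). All cells, controls included, received cycloheximide at 100 µg/mL for 4 min before lysis to hold ribosomes on their transcripts. Input libraries measured transcript abundance, and RPF libraries measured the ribosome-protected fragments of 28 to 30 nt left after RNase digestion. There were 4 groups (siControl Input, siIGF2BP3 Input, siControl RPF and siIGF2BP3 RPF) of 3 libraries each, and the cells, a single line in culture, model neither normal liver nor its other cell types.

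Plasma proteins are made on ribosomes at the endoplasmic reticulum, where a signal peptide carries the growing chain into the secretory pathway. Clotting runs through serine protease zymogens and their cofactors to thrombin, which turns fibrinogen into fibrin, while serpins, protein C and plasmin oppose or remove the clot. Several of these zymogens carry glutamate residues modified by a vitamin K-dependent carboxylase, and complement is a related cascade of plasma proteins that marks and lyses microbes.

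Total counts lay between 11219750 and 31510601 per library. siControl RPF replicates 2 and 3 differed by less than the sampling noise (mean chi-square per gene 0.941) so means and SDs take them as a single sample and give n = 2 for siControl RPF. The tests, with their SEs and adjusted p-values, kept all 3 siControl RPF libraries. With replicates 2 and 3 summed, the genes called in the RPF comparison went from 336 to 14. siIGF2BP3 RPF replicate 1 stood apart, since against replicates 2 and 3 the same measure came to 19.9 and 21.5. Between replicates 2 and 3 of that group it was 1.15, little above sampling noise. Footprint results are given with and without replicate 1, and those without it rest on a spread close to counting noise. The targeted gene was lower in every siIGF2BP3 library than in every siControl library, with a log2 fold change of -0.39 ± 0.05 in Input and -1.59 ± 0.08 in RPF (SE, edgeR adjusted p = 1.06e-05 and 0.000301). All 9 hepatocyte markers were above 1 CPM (counts scaled to a library total of 1000000). In Input, the 5 endothelial markers summed to 2.10 to 3.92 CPM, the 6 stellate or fibroblast markers to 40.4 to 46.7 CPM and the 6 macrophage or leukocyte markers to 22.2 to 27.5 CPM, with PTPRC, CD163, MARCO and C1QA at 0, whereas 4 of 5 cholangiocyte markers were present and summed to 1452.5 to 1549.4 CPM.

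Reads of near-identical genes limit what can be said of single members, and the complement C4 genes and the orosomucoids are the clearest case. C4A and C4B, both encoding complement component 4, lie on chromosome 6 and differ at 13 of 5232 coding positions (99.75% identical). ORM1 and ORM2, the orosomucoid (alpha-1-acid glycoprotein) genes on chromosome 9, differ at 31 of 603 coding positions (94.86% identical). The stretches below, 30 bases each from the coding sequence of the canonical GENCODE 44 transcript, are shown because they hold the highest density of differences between the genes of a pair. Capitals mark the bases that differ, and the bases in lower case are the same in both genes of a pair.

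C4A (hg38 chr6:31996070-31996099, plus strand): tcgttccaggaccCctGtccagtgTtaGaC
C4B (hg38 chr6:32028808-32028837, plus strand): tcgttccaggaccTctCtccagtgAtaCaT
ORM1 (hg38 chr9:114324835-114324864, plus strand): ccaagacctACatgCttgCttTTGacGtgA
ORM2 (hg38 chr9:114331612-114331641, plus strand): ccaagacctTGatgTttgGttCCTacCtgG

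Of all 29-nt windows in the coding sequence, 96.1% were shared by C4A and C4B, and 49.4% by ORM1 and ORM2. In all, 7 members shared at least 85% of their windows with another annotated gene: besides C4A and C4B these were A1BG (97.7%), SERPINA3 (100%), ITIH4 (95.4%), CFB (97.2%) and CFI (87.6%), each with an annotated gene that overlaps it on the same strand. Another 7 (HP, ORM1, ORM2, CP, VTN, PROS1 and PLG) shared between 10% and 85%, and 37 shared none. The levels of C4A and C4B followed each other in every library, from 61.8 to 75.3 CPM and from 64.2 to 75.9 CPM in Input, and each is best read as part of their sum.

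The members made up a sizeable part of what these cells transcribed and translated. Together they held 4.17%, 4.35% and 4.24% of all siControl Input counts (replicates 1, 2 and 3) and 6.62%, 6.90% and 6.85% of all siControl RPF counts. In siIGF2BP3 the shares were 3.82%, 3.94% and 3.92% in Input and 5.99%, 6.34% and 6.39% in RPF. In both assays every siIGF2BP3 library lay below every siControl library, and the RPF shares lay above the Input shares throughout. Albumin alone, the main plasma carrier, held between 0.923% and 0.934% of the siControl Input counts and between 1.91% and 1.99% of the siControl RPF counts. ALB, SERPINA1 and TF together held 2.325%, 2.475% and 2.405% of siControl Input counts. In siIGF2BP3 Input they held 2.07%, 2.145% and 2.101%, so much of the Input difference in the members' share lay in these genes.

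Levels spanned several orders of magnitude. In siControl Input 34 members averaged at least 100 CPM, 45 at least 10 CPM, and 4 were under 1 CPM: GC (the vitamin D carrier), LBP (which binds bacterial lipopolysaccharide), HRG (histidine-rich glycoprotein) and F9 (the clotting zymogen factor IX). F9 had no count in 2 of 3 siControl Input libraries and was at 0.0676 CPM in the other, where a count of 0 allows a level of up to 0.238 to 0.240 CPM (3 counts, counting error only). Per kb of exon, the highest Input levels in siControl were those of ALB at 2744.5 CPM per kb, SERPINA1 (alpha-1-antitrypsin, the inhibitor of neutrophil elastase) at 1886.4, AHSG (fetuin-A) at 1292.5, AMBP (the precursor of alpha-1-microglobulin and bikunin) at 576 and ORM1 at 448. Among members tested in Input, the lowest were HRG at 0.146 CPM per kb, ITIH1 at 0.356 and ITIH4 at 0.364, the last 2 being heavy chains of inter-alpha-trypsin inhibitors. TF (transferrin, the iron carrier) averaged 5498.1 ± 212 CPM (SD, n = 3), but its annotated exons add up to 26199 bases, which puts it at 210 CPM per kb.

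To ask how heavily these transcripts were occupied by ribosomes in control cells, RPF was compared with Input in siControl. The values below are log2 ratios of RPF to Input after scaling of the libraries (TMM), on which the median of all 12858 genes tested was 0.00. Most plasma protein genes had more footprints for their Input RNA than the typical gene: of 54 members tested, 40 were higher and 13 lower (edgeR adjusted p under 0.05), and the median was 0.80. At these depths nearly every gene differs from the typical one, since 89.9% of all genes were called, 45.1% higher and 44.8% lower, so the counts are read by direction and size. Among genes of at least 100 CPM in siControl Input the contrast was wider, with a median of 0.75 for 34 members and -0.69 for all 2024 such genes. High ratios were not particular to the members. Of 12 tested apolipoprotein genes 10 were called higher and 2 lower, with a median of 0.97. Of 34 other tested genes of plasma, clotting and complement proteins 20 were called higher and 12 lower, with a median of 0.41.

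Coding sequence filled more of the members' transcripts (median 79.2%) than of all genes' (49.2%). Where the reads of either assay fell along the transcripts was not tested, so the ratios are also given by coding share. Where coding sequence took 80% or more of the canonical transcript, the median was 0.82 for 24 members and 0.34 for all 1468 genes. Between 60% and 80% it was 0.60 for 20 members and 0.32 for 2709 genes, and under 60% it was 0.82 for 10 members and -0.15 for 7340 genes. The members' medians stood above those of all genes in each of these classes. Across the 54 members the log2 ratio and the coding share were weakly related (Pearson r 0.10, Spearman rho 0.11, genes being no independent replicates).

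**Figure D1:**
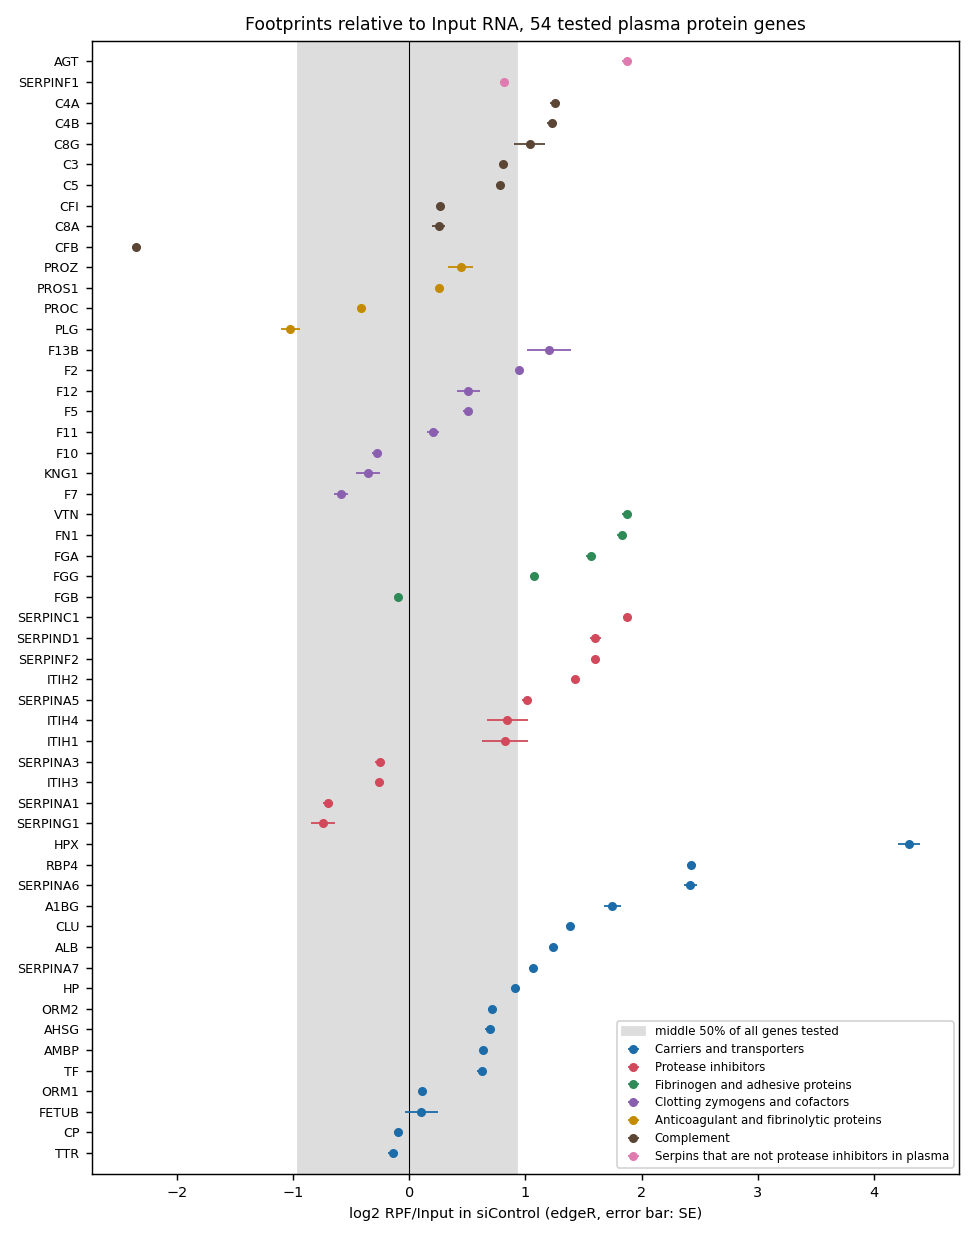
Each point is the log2 ratio of RPF to Input in siControl (horizontal axis) of 1 of the 54 tested genes (vertical axis), coloured by role, with its SE, and the grey band holds the middle 50% of all 12858 genes tested. Most points lie right of 0, with HPX at 4.30 and CFB at -2.35 as the extremes.

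Among carriers and transporters 13 of 16 tested members were higher and 2 lower, with a median of 0.81. Hemopexin (HPX, chromosome 11, 6431049 to 6442617, the plasma scavenger of free heme) had the highest ratio of all members. Its siControl Input level was 3.36, 2.43 and 2.63 CPM, and its siControl RPF level was 47.9, 49.4 and 51.4 CPM. The assays did not overlap, and the log2 ratio was 4.30 ± 0.09 (SE, edgeR adjusted p = 2.91e-19). No 29-nt coding window of HPX is shared with another gene. The same gap was present in siIGF2BP3, where HPX stood at 2.25 to 3.43 CPM in Input and 49.2 to 57.4 CPM in RPF.

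RBP4, the retinol carrier, followed at 2.43 ± 0.04, from 254 to 277 CPM in siControl Input and from 1263.8 to 1314.2 CPM in siControl RPF. SERPINA6, the cortisol carrier, stood at 2.42 ± 0.06 and AGT, the angiotensin precursor, at 1.87 ± 0.04 (SE). In all 3 genes every siControl RPF library lay above every siControl Input library. TTR, the carrier of thyroxine and of RBP4, and CP, the copper oxidase ceruloplasmin, were the carriers called lower, at -0.14 ± 0.05 and -0.10 ± 0.03. The call of TTR was lost without siControl RPF replicate 1, and that of CP without siControl RPF replicate 3 or when siControl RPF replicates 2 and 3 were summed.

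Protease inhibitors divided between both sides, 7 of 11 higher and 4 lower. SERPINC1 (antithrombin) at 1.87 ± 0.04, SERPIND1 (heparin cofactor II) at 1.60 ± 0.04 and SERPINF2 (the plasmin inhibitor) at 1.60 ± 0.04 led the group. SERPINA1, the most abundant serpin, went the other way, from 8700.6, 9683.6 and 9357.8 CPM in siControl Input to 4987.4, 5119.9 and 5171.4 CPM in siControl RPF. Every RPF library was below every Input library, and the log2 ratio was -0.70 ± 0.04. SERPING1, the C1 inhibitor, was at -0.74 ± 0.10, and SERPINA3, an inhibitor of chymotrypsin-like proteases, at -0.25 ± 0.04, although all coding windows of SERPINA3 are shared with an overlapping gene.

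Clotting zymogens and cofactors had a median of 0.35, with 5 of 8 higher and 3 lower. F2 (prothrombin) stood at 0.94 ± 0.04, while F7 and F10, the zymogens that start the extrinsic and the common pathway, stood at -0.59 ± 0.06 and -0.28 ± 0.04. PROC, the anticoagulant protein C, was at -0.41 ± 0.04 and PLG, the plasmin precursor, at -1.02 ± 0.08. In PLG 25.9% of coding windows are shared with other genes. Of the 6 tested vitamin K-dependent members, 3 were higher (F2, PROS1 and PROZ) and 3 lower (F7, F10 and PROC), with a median of -0.01.

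Of the 8 complement members 7 were higher, with a median of 0.80, led by C4A at 1.25 ± 0.04 and C4B at 1.23 ± 0.04. C3, the central component, was at 0.81 ± 0.04. CFB, the protease of the alternative pathway, had the lowest ratio of all members, from 149.9 to 154.5 CPM in siControl Input to 26.4 to 27.4 CPM in siControl RPF, a log2 ratio of -2.35 ± 0.04. A protein-coding locus that spans CFB and shares 97.2% of its coding windows was itself counted at 184 CPM in siControl Input and 60.9 CPM in siControl RPF, so how reads were divided between them touches this value, and its part in the ratio was not tested.

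The fibrinogen chains, FGA, FGB and FGG, are products of neighbouring genes on chromosome 4 (154562956 to 154612967) that assemble in equal numbers, and their footprints differed more than their Input RNA. Per kb of coding sequence their Input levels in siControl were 462 to 481 CPM for FGA, 451 to 466 for FGB and 727 to 753 for FGG. On the same scale their siControl RPF levels were 1213.7 to 1274.4 CPM for FGA, 378 to 384 for FGB and 1376.2 to 1420.8 for FGG. FGB had the fewest footprints in every library. Per coding kb, the quotient of FGA to FGB across the siControl libraries, in replicate order, was 1.06, 1.06 and 0.991 for Input and 3.21, 3.31 and 3.33 for RPF. That of FGG to FGB was 1.61, 1.67 and 1.59 for Input and 3.64, 3.70 and 3.66 for RPF. Per kb of exon, the quotients were lower in both assays, for FGA 0.954, 0.953 and 0.890 in Input against 2.88, 2.97 and 2.99 in RPF, and for FGG 1.12, 1.16 and 1.10 in Input against 2.53, 2.57 and 2.54 in RPF. In siIGF2BP3 RPF, FGA over FGB was 2.88, 3.01 and 2.98 per coding kb. Coding sequence took 87.5% of the canonical transcript of FGA, 65.6% of that of FGG and 40.5% of that of FGB. The counted exons add up to 3956, 3600 and 2708 bases for FGA, FGG and FGB, and the coding sequences to 1932, 1359 and 1473. As the canonical FGB transcript has 3641 bases, its coding share does not describe the counted exons. The part of coding share in the quotients was not tested. The log2 ratios of RPF to Input were 1.56 ± 0.04 for FGA, 1.08 ± 0.04 for FGG and -0.10 ± 0.03 for FGB (SE, edgeR adjusted p = 0.00781 for FGB, a call lost when siControl RPF replicates 2 and 3 were summed). None of the 3 genes shares a 29-nt coding window with another gene.

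**Figure D2:**
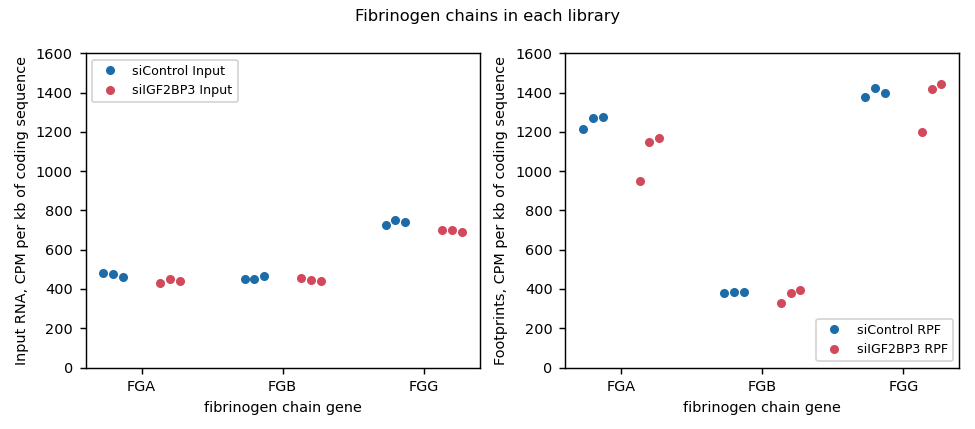
Each point is 1 library, with Input (left) and RPF (right), both in CPM per kb of coding sequence on the same range, for the 3 fibrinogen chain genes in siControl (blue) and siIGF2BP3 (red). In siControl Input FGA and FGB overlap and FGG is higher, at 727 to 753, whereas the siControl footprints of FGB, at 378 to 384, lie far below those of FGA and FGG.

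The start codons of these genes are shown because FGB was 1 of only 2 members without A or G at the base 3 before the start codon, a position known to weigh in start codon choice. The sequences come from the canonical GENCODE 44 transcripts (hg38), and capitals mark that base and the start codon.

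FGA (start codon at chromosome 4, 154590687, minus strand): cccttagaaAagATGttttccatg
FGB (start codon at chromosome 4, 154563019, plus strand): aagtcTacATGaaaaggatg
FGG (start codon at chromosome 4, 154612609, minus strand): cactcagacAtcATGagttggtcc
SERPING1 (start codon at chromosome 11, 57598271, plus strand): gtcgccgccCagATGgcctccagg

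The canonical FGB transcript has 8 bases before its start codon, against 55 in FGA and 47 in FGG. The counted exons of FGB begin further upstream, at 154562956, so these 8 bases do not describe the leader of all counted FGB RNA. The other member without A or G there, SERPING1, also had a ratio below 0. The 56 remaining members carry A or G, with median ratios of 0.82 for 38 tested with A and 0.66 for 14 with G. Among them are CFB, PLG, SERPINA1 and F7, also below 0, at -2.35, -1.02, -0.70 and -0.59. The part of this base in the ratios was not tested. Over all 11369 genes with an ATG start in the canonical transcript, the median log2 ratio was -0.01 with A, 0.08 with G, -0.11 with C and -0.16 with T at this base.

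To ask how transcript levels changed with the knockdown, the Input libraries were compared. Plasma protein transcripts moved mostly downward and by little: of 55 members tested, 11 fell and 1 rose (edgeR adjusted p under 0.05), where 1.9% of all 14759 genes fell and 4.05% rose (5.96% in either direction). The members' median log2 fold change was -0.09 against 0.00 over all genes, and 41 of 55 were below 0. In CPM, each siIGF2BP3 library was lower than each siControl library in 14 members (as in 5.73% of all genes) and higher than each in 9 (as in 19.2% of all genes). Knocked-down cultures with less of a transcript per cell and cultures with fewer cells that express it cannot be told apart in such bulk samples.

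The falls lay among abundant transcripts. At 1000 CPM or more in siControl Input, 5 of 9 members fell, and so did 43 of all 106 genes at that level (40.6%), with medians of -0.16 and -0.12. Between 100 and 1000 CPM, 6 of 25 members fell against 7.81% of all genes, with medians of -0.09 and -0.05. Below 100 CPM no member fell. Across members the log2 fold change went down with the siControl level (Pearson r -0.55, Spearman rho -0.38, 55 genes, all measured in the same libraries), and across all 14759 genes it did so less steeply (r -0.25, rho -0.22). The siControl libraries enter both measures.

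**Figure D3:**
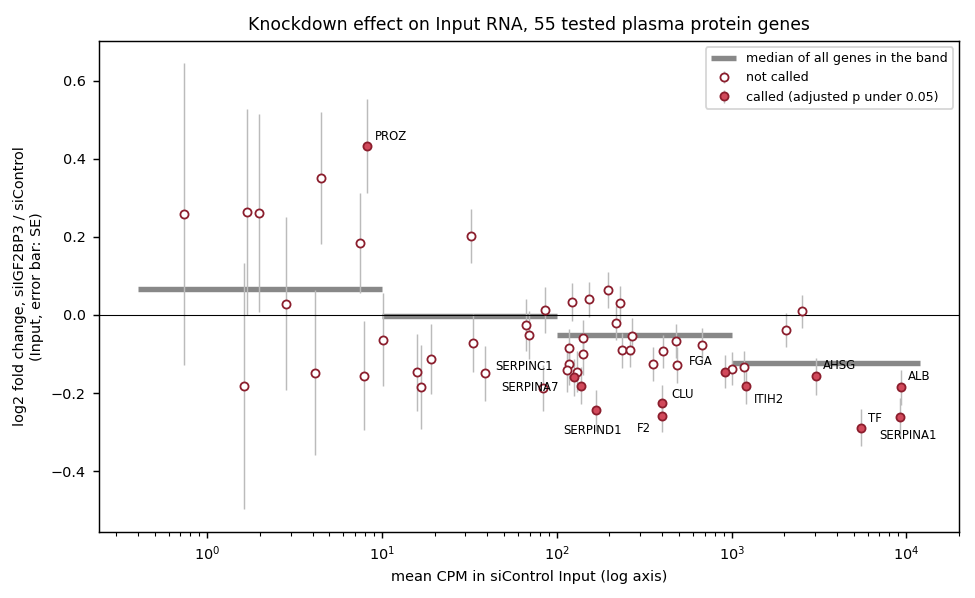
Each point is 1 of 55 tested genes, with its mean CPM in siControl Input on a log axis (horizontal) and its log2 fold change in Input with SE (vertical), and filled points were called by edgeR. Grey bars give the median of all genes in 4 bands of level, down to -0.12 at 1000 CPM or more, where 5 of the 9 plasma protein genes fell.

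Carriers gave 5 of the 11 falls: TF, ALB, AHSG, SERPINA7 and CLU. TF (chromosome 3, 133745956 to 133796640) had the largest, from 5305.5, 5724.8 and 5464.2 CPM in siControl Input to 4497.9, 4799.1 and 4664.8 CPM in siIGF2BP3 Input. The groups did not overlap, and the log2 fold change was -0.29 ± 0.05 (SE, edgeR adjusted p = 0.000362), or 18.1% lower. ALB (chromosome 4, 73397114 to 73421412) went from 9240.6, 9338.6 and 9224.8 to 8487.8, 8511.0 and 8277.5 CPM. Its groups were likewise apart, at -0.18 ± 0.05 (adjusted p = 0.0128, edgeR). CLU, the extracellular chaperone clusterin, fell by 0.23 ± 0.05 on the log2 scale (adjusted p = 0.00276, edgeR), from 401.9 ± 6.69 to 355.3 ± 19.2 CPM (SD, n = 3 each). SERPINA7, the thyroxine-binding globulin, fell by 0.18 ± 0.05 and AHSG by 0.16 ± 0.05 (adjusted p = 0.0245 and 0.0494, edgeR).

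Among protease inhibitors 4 of 11 fell. SERPINA1 (chromosome 14, 94376747 to 94390693) went from 9247.4 ± 501 to 7973.2 ± 228 CPM (SD, n = 3 each), with all siIGF2BP3 libraries, at 7714.0 to 8140.9 CPM, below the lowest siControl library. The log2 fold change was -0.26 ± 0.05 (adjusted p = 0.00171, edgeR). SERPIND1 fell by 0.24 ± 0.05, ITIH2 by 0.18 ± 0.04 and SERPINC1 by 0.16 ± 0.05 (adjusted p = 0.00458, 0.0126 and 0.0469, edgeR). In each of them the groups did not overlap. The neighbours of SERPINA1 on chromosome 14 (SERPINA6, SERPINA5 and SERPINA3) were at -0.11, -0.10 and -0.09 and were not called.

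Of the clotting proteins, F2 (chromosome 11, 46719180 to 46739506) fell from 390.5, 400.0 and 402.7 CPM to 339.5, 341.2 and 350.9 CPM, without overlap. The log2 fold change was -0.26 ± 0.04 (adjusted p = 0.00041, edgeR). FGA, the fibrinogen alpha chain, fell by 0.15 ± 0.04 (adjusted p = 0.042, edgeR), while FGG was at -0.14 ± 0.04 and FGB at -0.08 ± 0.04 and were not called. No complement member was called in Input. An unadjusted p of 0.05 was passed by 0 of 8, and by 3017 of all 14759 genes. C3, at 2047.7 to 2072.3 CPM in siControl and 2024.4 to 2113.5 CPM in siIGF2BP3, overlapped between the groups.

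The only member that rose in Input was PROZ (chromosome 13, 113158654 to 113172383), which encodes protein Z, a cofactor in the inhibition of factor Xa. Its Input level was 7.43, 8.45 and 8.81 CPM in siControl, and 10.9, 11.2 and 12.4 CPM in siIGF2BP3. All siIGF2BP3 libraries were higher, with a log2 fold change of 0.43 ± 0.12 (adjusted p = 0.03, edgeR). Its neighbours F7, at 0.20 ± 0.07, and F10, at -0.13 ± 0.06, were not called. F7 was above all siControl libraries in every siIGF2BP3 Input library.

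The calls differed in how firmly they held. TF, SERPINA1, CLU, SERPIND1 and F2 were called in all 13 alternative analyses of Input, ITIH2 was lost in 1 and ALB in 2. SERPINA7 was lost in 5, PROZ in 6, AHSG and FGA in 7 and SERPINC1 in 8. Without siControl Input replicate 3 there were 5 members called, and without siIGF2BP3 Input replicate 2 or 3 there were 7.

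Among 36 other tested genes of plasma, clotting and complement proteins, 4 fell in Input and 3 rose. AFP, the fetal counterpart of albumin, fell by 0.23, AZGP1 by 0.24, TFPI, the inhibitor of the tissue factor pathway, by 0.20 and APOH by 0.15. HGFAC, at 0.46, and MST1, at 0.41, encode a protease and a protease-like growth factor related to clotting enzymes, and HAMP, at 0.22, encodes the iron hormone hepcidin. Of 12 tested apolipoprotein genes, APOA1 and APOA5 fell, by 0.29 and 0.37, all 12 were below 0, and the median was -0.12. None of 6 genes for the maturation and export of clotting factors was called (1 passed an unadjusted p of 0.05, as did 3017 of all 14759 genes).

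Footprints were compared in the same way. Over all 6 RPF libraries only VTN was called among 55 tested members (edgeR adjusted p under 0.05), as a fall, where 1.66% of all 20192 genes were called, 0.649% as falls and 1.02% as rises. The members' median log2 fold change was -0.08 against 0.01 over all genes, and 44 of 55 were below 0 (9632 of all 20192 genes). Each siIGF2BP3 library was lower than each siControl library in 22 members (as in 14.8% of all genes), and higher than each only in C8G, a chain of complement C8 (as in 10.9% of all genes).

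VTN, the adhesive protein vitronectin (chromosome 17, 28367276 to 28373091), was at 272.4, 273.0 and 270.8 CPM in siControl RPF and at 221.4, 229.0 and 227.2 CPM in siIGF2BP3 RPF. The groups were well apart, and the log2 fold change was -0.25 ± 0.04 (adjusted p = 0.0268, edgeR). Its call was lost in 7 of 15 alternatives, among them the sum of siControl RPF replicates 2 and 3, while the value stayed between -0.27 and -0.24. In Input VTN was at -0.19 ± 0.06 (adjusted p = 0.0575, edgeR), and 21.4% of its coding windows are shared with an overlapping gene.

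The 11 members that fell in Input all had log2 fold changes below 0 in RPF, from -0.22 to -0.01 with a median of -0.13. Of all 55 tested members 44 were below 0 in RPF, so this was common among them. None of the 11 was called there over the 6 libraries. CLU was closest to 0, with 914 to 935 CPM in siIGF2BP3 RPF and 916 to 955 CPM in siControl RPF.

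**Figure D4:**
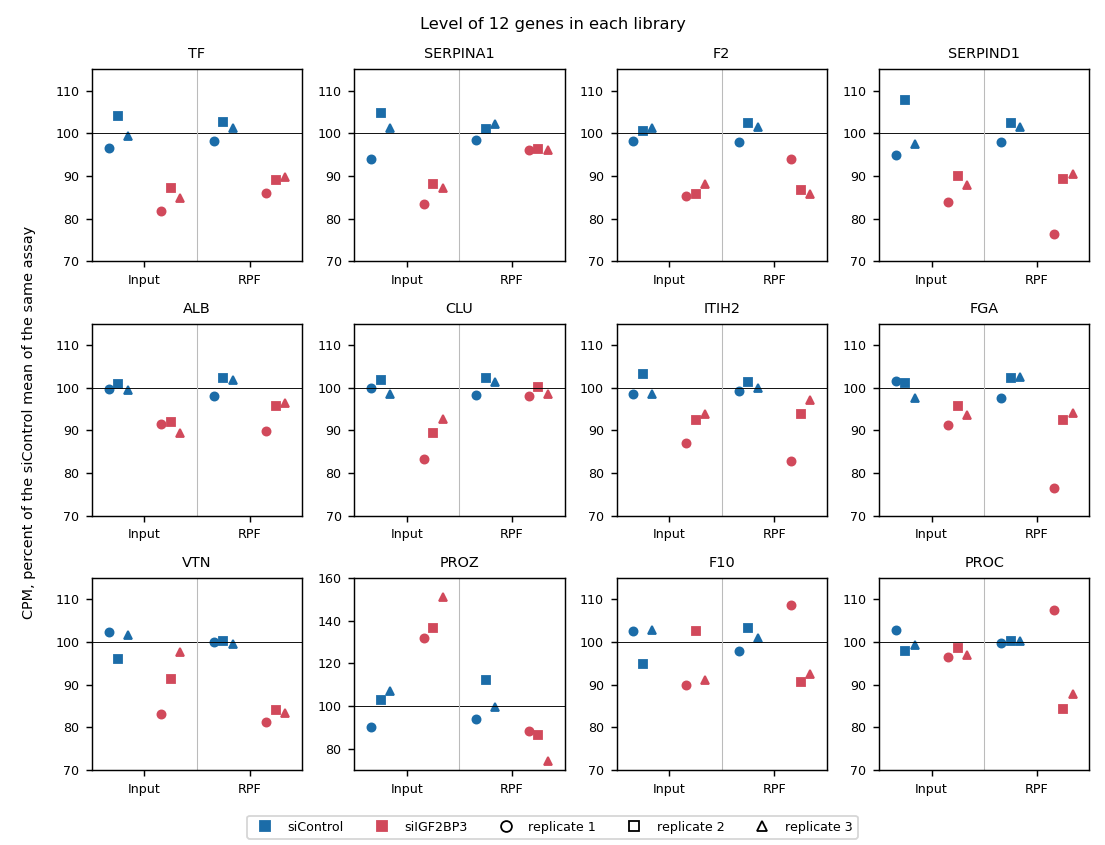
Each panel gives 1 gene, with its CPM in each library as a percentage of the siControl mean of the same assay, RPF replicates 2 and 3 taken as a single sample (vertical axis, drawn over a wider range for PROZ) for siControl (blue) and siIGF2BP3 (red), replicates by symbol. TF, SERPINA1 and F2 are lower in all siIGF2BP3 Input libraries, PROZ is higher in Input and lower in RPF, and in F10 and PROC siIGF2BP3 RPF replicate 1 lies on the other side of siControl from replicates 2 and 3.

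siIGF2BP3 RPF replicate 1 decided how many footprint calls were made. It lay below all siControl libraries in 42 of 55 members and above them in 8. In 8 members (HP, ORM1, ORM2, SERPINA6, SERPINF2, F7, F10 and PROC) it lay on the side of siControl opposite to both other siIGF2BP3 libraries. Without it, 20 members were called, 19 as falls, while 16.5% of all 20615 genes were called, 8.57% as falls and 7.97% as rises. All genes called with the library stayed called without it. The siIGF2BP3 RPF libraries left, replicates 2 and 3, differed little more than sampling noise (mean chi-square per gene 1.15), so these calls rest on a small spread. Same-numbered RPF libraries were partly alike (deviations correlated at 0.37, 0.27 and 0.099). As siControl RPF replicate 1 stayed in, replicate number and knockdown were no longer balanced, and the part of this in the calls was not tested. With siControl RPF replicates 2 and 3 summed as well, an alternative chosen after seeing the data, 16 members were called, 15 as falls, where 14.5% of all 20901 genes were called, 7.4% as falls and 7.08% as rises. The 4 calls lost were those of RBP4, SERPINA5, FGA and F10 (adjusted p = 0.0862, 0.0924, 0.0962 and 0.0571, edgeR). The members' median was -0.07, near the -0.08 with all libraries, so the number of calls changed more than the typical size.

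Without that library, falls covered 4 of 8 tested clotting zymogens and cofactors (F2, F7, F10 and F11) and 3 of 4 anticoagulant and fibrinolytic proteins (PROC, PROZ and PLG). Of the 6 tested vitamin K-dependent members 5 fell: PROZ by 0.33, F2 by 0.23, F7 by 0.22, PROC by 0.22 and F10 by 0.14 on the log2 scale. Over all 6 libraries none of these was called, and F7, F10 and PROC were at -0.06, -0.03 and -0.09. PROC, for example, was at 78.8, 79.3 and 79.2 CPM in siControl RPF and at 84.99, 66.7 and 69.4 CPM in siIGF2BP3 RPF. Replicate 1 was thus the highest of the 6 libraries and replicates 2 and 3 the lowest. The largest fall was that of PLG, at -0.35 ± 0.08 (SE, edgeR adjusted p = 0.0126), with all siIGF2BP3 libraries, at 5.20 to 5.79 CPM, below the siControl range of 6.73 to 7.12 CPM. HPX was the only rise, at 0.19 ± 0.04 (adjusted p = 0.0117, edgeR). No complement member was called, 2 of 8 passing an unadjusted p of 0.05, as did 5843 of all 20615 genes. In each assay 55 members were tested, with 12 called in Input, 20 called here and 7 called in both. Of these, 6 fell in both assays, while PROZ rose in Input and fell here. The same overlap over all genes was not counted, so whether it is particular to the members is not known.

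**Figure D5:**
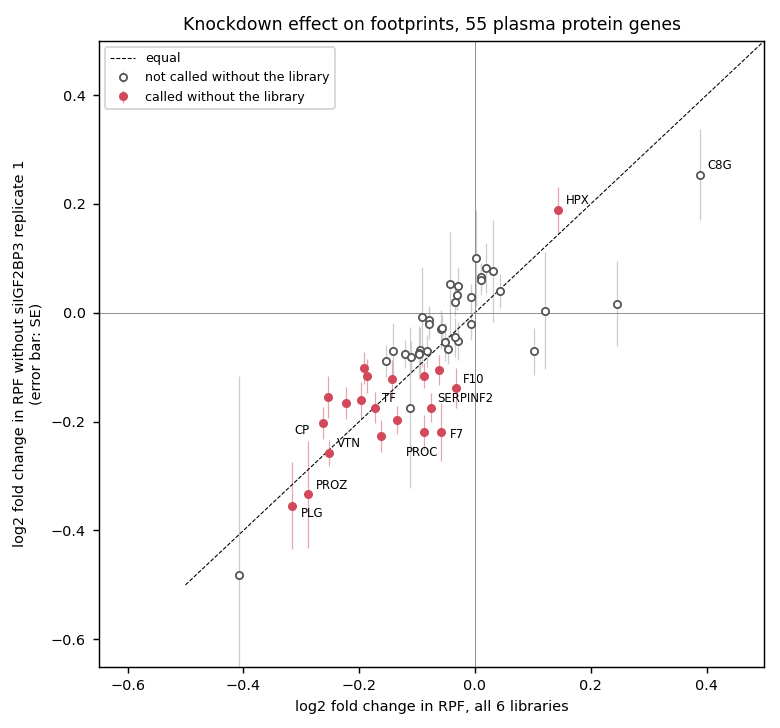
Each point is 1 of 55 tested genes, with its log2 fold change in RPF over all 6 libraries (horizontal) and without siIGF2BP3 RPF replicate 1 (vertical, with SE), filled where edgeR called it without that library, and the dashed line marks equal values. Most points keep the same sign, while F7, F10 and PROC lie well below the line.

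Translational efficiency (TE) was compared as the difference between the knockdown effects in RPF and in Input, in 1 model over all 12 libraries. Of 54 members tested only PROZ was called (edgeR adjusted p under 0.05), where 2.17% of all 13395 genes were called, 1.36% lower and 0.814% higher. The members' median log2 change was 0.02 against 0.01 over all genes, with 30 above 0 and 24 below. The 11 members that fell in Input had TE changes from -0.04 to 0.22, with a median of 0.10 and none called. TE subtracts the Input effect, and these members were picked for low Input effects in the same libraries. A shift above 0 is thus partly built in.

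PROZ combined the rise in Input with lower footprints, from 9.33, 11.2 and 9.89 CPM in siControl RPF to 8.75, 8.59 and 7.38 CPM in siIGF2BP3 RPF. These groups did not overlap, but the change in RPF alone, -0.29 ± 0.11, was not called. The TE change was -0.72 ± 0.16 (adjusted p = 0.0235, edgeR interaction term), and the ratio of mean RPF to mean Input CPM went from 1.21 to 0.716. In 8 of 23 alternatives the call was lost, with values between -0.79 and -0.63. Among these 8 were DESeq2, a block for each culture, and the sum of siControl RPF replicates 2 and 3. PROZ is a low transcript, and the antisense gene that overlaps 4.08% of its exon bases was counted at 0.102 CPM in siControl Input.

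Without siIGF2BP3 RPF replicate 1, 8 members were called in TE, where 10.0% of all 13479 genes were called, 4.53% higher and 5.48% lower. AGT, CLU, FGG, ORM1 and SERPINA1 were higher, by 0.18, 0.21, 0.18, 0.17 and 0.20, and PROZ, F7 and FN1 (fibronectin) were lower, at -0.76, -0.42 and -0.16. With siControl RPF replicates 2 and 3 summed as well, AGT and FN1 lost the call (adjusted p = 0.0645 and 0.121, edgeR), leaving 6 members, where 8.05% of all 13522 genes were called, 3.48% higher and 4.57% lower. FN1 was at 2511.8 to 2534.3 CPM in siControl Input and 2601.4 to 2641.5 in siIGF2BP3 Input, and at 7725.4 to 8261.5 CPM in siControl RPF and 6406.5 to 7249.7 in siIGF2BP3 RPF. In RPF every siIGF2BP3 library was lower, whereas its Input fold change after scaling was 0.01 ± 0.04. SERPINA1 and CLU were among those that fell in Input, so their higher TE is partly built in too. Neither was called in RPF with or without the library.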

How the data were processed

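Per the labels and the study's methods, the authors used cutadapt for trimming, STAR for alignment to hg38 and featureCounts for counting. Versions and counting options are not given in the sources used here, nor is how Input libraries were made. What they deposited per gene is an estimated count without scaling for depth, often a fraction (31.8% to 33.3% of genes with a count in Input, 63.2% to 66.0% in RPF), as split reads give, so genes with near copies or overlapping neighbours are uncertain. They were rounded to whole numbers for testing.

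Genes were named through GENCODE 44 (99.2% of identifiers matched). Groups and replicate numbers came from the sample titles. Comparisons used edgeR 4.0.16 (R 4.3.3): filterByExpr, TMM factors, quasi-likelihood tests and Benjamini-Hochberg adjustment over all genes tested, with a threshold of 0.05. RNA used 6 Input libraries, RPF 6 RPF libraries, TE the interaction over 12, and RPF/Input the 6 siControl libraries. The study's methods name DESeq2 for TE, so DESeq2 1.42.0 was an alternative, beside other scalings, filters, a replicate block and the leaving out of each library. The fits were tested on simulated data. CPM were scaled to library totals without TMM. The labels do not say that libraries came from separate cultures, so p-values measure the spread between these libraries only. Reads carried no molecular identifiers.

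The members and gene lists were chosen with earlier results of these data known. Genes named in the text are the members called in any comparison, those with the highest and lowest levels or RPF/Input ratios, the fibrinogen chains, the near-identical pairs and called genes of the other lists. Other members were named after their values were seen. Shared windows were 29-nt stretches of the canonical coding sequence found in another GENCODE gene.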

Additional observations from a re-analysis of the deposited data

Results flagged for a closer look

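PROZ differed between the assays: its Input rose and its RPF did not, and the difference of the knockdown effects was -0.72 on the log2 scale (edgeR interaction term). This call was lost in 8 of 23 alternatives, DESeq2 and the summed siControl RPF replicates 2 and 3 among them. The targeted gene, IGF2BP3, also differed between the assays, by -1.19, with the larger decrease in RPF. In groups of 3 libraries single libraries were not tested as outliers.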

How the results depend on the processing

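In Input, 12 members and 879 genes were called. Leaving out 1 library at a time gave 5 to 12 members and 444 to 907 genes. In RPF, 1 member and 336 genes were called, and leaving out 1 library gave 0 to 20 members and 11 to 3410 genes, the highest without siIGF2BP3 RPF replicate 1. DESeq2 gave 3 members and 674 genes in RPF, protein-coding genes alone gave 198 genes, and summing siControl RPF replicates 2 and 3 gave 0 members and 14 genes. In TE, 1 member and 291 genes were called, and leaving out 1 library gave 0 to 8 members and 126 to 1350 genes. DESeq2 gave 2 members, both higher, and the summed replicates 0 members and 143 genes. An alternative chosen after seeing the data summed siControl RPF replicates 2 and 3 and left out siIGF2BP3 RPF replicate 1, which gave 16 members and 3025 genes in RPF and 6 members and 1088 genes in TE. The cause of these differences was not tested. For RPF/Input, leaving out 1 library gave 52 or 53 members, all within 1.5 times the value reported. Of 63 single-gene values recomputed, 3 changed direction, none of them called over all libraries: FN1 in Input (-0.00102 with upper-quartile factors, -0.0020 to 0.0136 with 1 library left out), and F7 and F10 in RPF (-0.219 to 0.0509 and -0.138 to 0.0256 with 1 library left out, above 0 without siIGF2BP3 RPF replicate 2 or 3).

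Replicate numbers did not pair the Input libraries, while same-numbered RPF libraries were partly alike. Deviations of same-numbered Input libraries correlated at 0.00, -0.05 and -0.03 and those of RPF libraries at 0.37, 0.27 and 0.099, with 1 of 6 Input and 4 of 6 RPF libraries closest to their own number. With the replicate number as a block, 14 members were called in Input, 0 in RPF, 1 in TE and 53 in RPF/Input, and with a block for each culture 0 members and 121 genes in TE. Counting noise limits members under 10 CPM, where SEs reach 0.39 on the log2 scale.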
